A study of Mesocricetus auratus with 6 samples.

Results

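The acute-phase genes of the liver described here encode plasma proteins of hepatocytes, most of which are made in larger amounts during inflammation. They were chosen by symbol from a list of 10 genes (*Orm1*, *Lcn2*, *Hp*, *Hpx*, *Fga*, *Fgb*, *Fgg*, *Apcs*, *Itih4* and *Crp*), with no measured value in the rule. Of these, 9 had a row among the 31593 genes of the gene matrices, and *Crp* was not analysed here.

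In the acute-phase response, macrophages and other cells release interleukin-6, interleukin-1 and tumor necrosis factor, and hepatocytes answer by changing the mix of proteins they secrete. Interleukin-6 acts through its receptor and STAT3, interleukin-1 acts through NF-kappaB, and C/EBP factors and glucocorticoids add to both. Positive acute-phase proteins clot blood, bind hemoglobin, heme or iron carriers, and mark microbes, while albumin and other negative acute-phase proteins fall.

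RNA was sequenced from liver, cerebral cortex and the suprachiasmatic nucleus (SCN), the brain's circadian pacemaker, of *duper* and wild type Syrian hamsters (*Mesocricetus auratus*) to ask how loss of CRY1 alters expression. *duper* is a recessive frameshift deletion in *Cry1*, a core repressor of the circadian clock, that shortens the free-running period. It was kept in hamsters of the LVG ecotype that no longer carried the *tau* mutation on which it arose. The wild type hamsters were LVG too, but the study describes the *duper* line as bred independently, so line and genotype cannot be told apart. Tissues came from 4 hamsters per genotype, raised in a 14:10 light-dark cycle with free access to food and water, and were taken at circadian time (CT) 15, early in the subjective night. The *duper* hamsters were all female and the wild type hamsters were of both sexes, so sex and genotype cannot be told apart. Age was not given in the sources used here. Cortex and SCN material of the 4 hamsters was mixed before 1 library was made, whereas liver libraries were made from each hamster and their reads then merged. The data are thus 6 libraries, 1 per genotype and tissue, and no spread between hamsters can be had from them.

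The estimated counts summed to 6788947 in wild type cortex, 10391925 in *duper* cortex, 29936218 in wild type SCN, 7248840 in *duper* SCN, 69839214 in wild type liver and 85748562 in *duper* liver. *Cry1* itself stood at 33.3 TPM (transcript abundance corrected for length and scaled to one total in each library) in wild type cortex against 8.56 in *duper* cortex, at 22.9 against 8.14 in SCN, and at 16.8 against 5.44 in liver. It was lower in the *duper* library of each tissue. Albumin transcripts (*Alb*) reached 107273 and 112117 TPM in the livers, and the summed level of 8 neuron markers was 1.18 TPM in wild type liver and 1.31 TPM in *duper* liver. The same neuron markers summed to 6030 and 6144 TPM in wild type and *duper* cortex, and to 2321 and 2652 TPM in wild type and *duper* SCN. *Nms*, a neuropeptide gene of the SCN, was at 33.5 TPM in wild type SCN and 13.4 TPM in *duper* SCN and was listed at 0 in cortex and liver.

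All 9 genes had a higher level in *duper* liver than in wild type liver. Differences are given as log2 ratios of *duper* over wild type after adding 1 to each TPM value. Their 95% Clopper-Pearson intervals come from the 2 estimated counts and refer to the ratio without the added 1. These intervals cover counting error only, and with 1 library a group the differences have no replicate check. In whole tissue, more cells of a type and more RNA per cell cannot be told apart.

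The lipocalin genes had the lowest liver levels in wild type. *Lcn2*, whose product binds bacterial siderophores and so withholds iron, stood at 150.0 TPM in wild type liver (4047 counts) and 1040.0 TPM in *duper* liver (34833 counts). This was the largest liver difference among the 9 genes, with a log2 ratio of 2.79 (interval 2.75 to 2.84), a 6.93-fold higher level. Only 22 of the 14054 genes averaging 1 TPM or more in liver had a larger log2 ratio. *Orm1*, for alpha-1-acid glycoprotein, a lipocalin that carries lipophilic compounds in plasma, was at 618 TPM in wild type liver (13904 counts) and 1595 TPM in *duper* liver (44543 counts). The *Orm1* log2 ratio was 1.37 (interval 1.34 to 1.40), or 2.58-fold. Whether reads of near-identical copies were assigned to *Orm1* was not tested.

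The genes for the scavengers of hemoglobin and heme differed least. *Hp* encodes haptoglobin, which binds free hemoglobin, and had the highest liver level of the 9 genes in both genotypes, 14534 TPM in wild type and 19666 in *duper* (533451 and 896766 counts). Its log2 ratio was 0.44 (interval 0.43 to 0.44), a 1.35-fold difference. *Hpx* encodes hemopexin, which binds heme and delivers it to hepatocytes. *Hpx* was at 2482 TPM in wild type liver (316941 counts) and 3313 TPM in *duper* liver (522547 counts), with a log2 ratio of 0.42 (interval 0.41 to 0.42). The *Hp* level was 5.86 times that of *Hpx* in wild type liver and 5.94 times in *duper* liver, both in TPM.

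The fibrinogen chains, which assemble into the clot precursor and need one another for secretion, had similar log2 ratios. *Fga*, the alpha chain, was at 1571 TPM in wild type liver (162052 counts) and 3468 TPM in *duper* liver (445287 counts). *Fgb*, the beta chain, was at 2493 TPM in wild type liver (150643 counts) and 5805 TPM in *duper* liver (436137 counts). *Fgg*, the gamma chain, was at 2145 TPM in wild type liver (124933 counts) and 4857 TPM in *duper* liver (351724 counts). Each chain was thus higher in the *duper* library. The log2 ratios were 1.14 for *Fga* (interval 1.13 to 1.15), 1.22 for *Fgb* (1.21 to 1.23) and 1.18 for *Fgg* (1.17 to 1.19), or 2.21-fold, 2.33-fold and 2.26-fold. On the TPM scale the level of *Fgb* over *Fga* was 1.59 in wild type and 1.67 in *duper* liver, and that of *Fgg* over *Fga* was 1.37 and 1.40. The order of the chains by TPM (*Fgb*, *Fgg*, *Fga*) was the same in both livers.

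*Apcs* encodes serum amyloid P component, a short pentraxin that binds microbial surfaces and amyloid, and its product in Syrian hamsters is known as female protein because its plasma level is higher in females. In this species its response to inflammation also depends on sex, rising in males and falling in females. *Apcs* was at 2499 TPM in wild type liver (68813 counts) and 9650.4 TPM in *duper* liver (329757 counts). Its log2 ratio of 1.95 (interval 1.94 to 1.96), a 3.86-fold difference, was the second largest of the 9, and 71 genes of the 14054 had a larger one. Among genes ranked by TPM within each liver, *Apcs* stood at place 44 in wild type and place 8 in *duper*. *Itih4*, for an inter-alpha-trypsin inhibitor heavy chain that plasma kallikrein cleaves, was at 863 TPM in wild type liver (101943 counts) and 2193 TPM in *duper* liver (322274 counts). The *Itih4* log2 ratio was 1.34 (interval 1.33 to 1.35), or 2.54-fold.

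**Figure D1:**
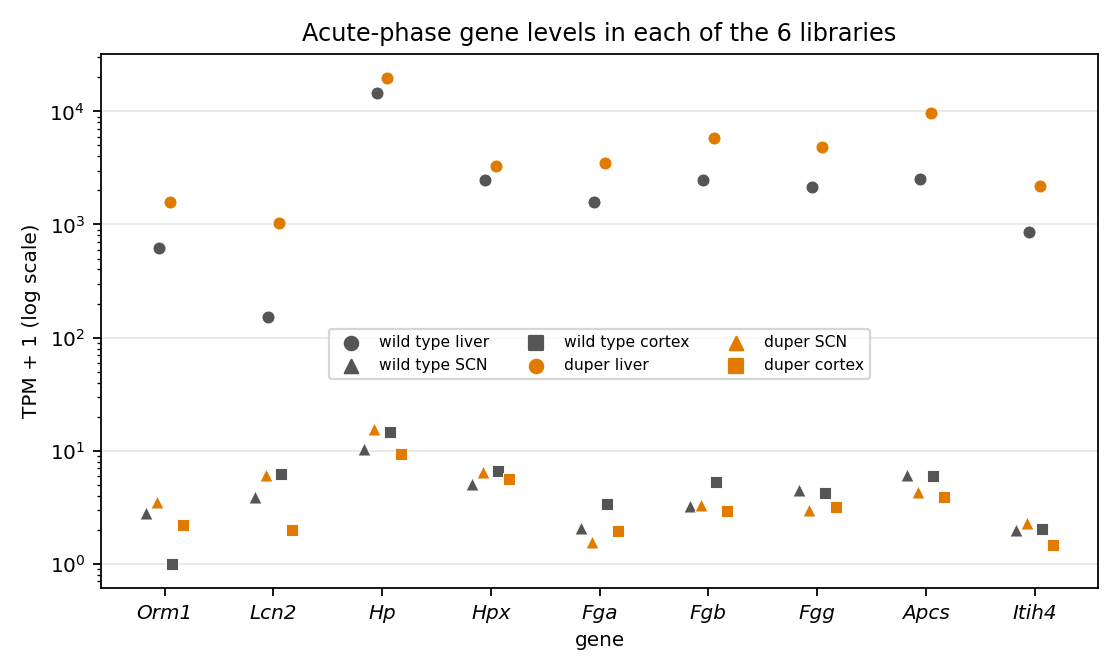
Level of each gene (x axis) as TPM plus 1 on a log scale (y axis), with 1 point per library, colored by genotype and shaped by tissue. Liver levels run from 150.0 to 19666 TPM and brain levels from 0 to 14.7 TPM, and the *duper* liver point is above the wild type liver point for each gene.

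Past a log2 ratio of 0.58, 7 of the 9 genes were higher in *duper* liver, against 4.75% of the 14054 genes expressed there, and 0 of the 9 were lower, against 10.5%. *Hp* at 0.44 and *Hpx* at 0.42 did not reach that threshold, while *Fga* at 1.14 was the lowest of the genes past it. The median log2 ratio of the 9 genes was 1.22, and 1.36 without the fibrinogen chains, against -0.10 over all expressed genes. Of all expressed genes, 36.2% had a log2 ratio above 0. The genes were chosen with earlier results known, so these counts and medians describe the 9 genes and are no test of them.

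The scaling of the liver libraries moved the counts over all genes more than those of the 9. In TPM, 31.1% of the genes past the threshold were higher in *duper* (668 higher and 1477 lower), whereas with CPM, counts scaled to library size, normalized by trimmed means of M values (TMM) 54.0% were (1067 higher and 909 lower). On that TMM scale the median over all genes was 0.06, a shift above 0.1, and *Hp* at 0.62 and *Hpx* at 0.59 also passed the threshold, so that 9 of the 9 genes did. After subtracting the median of all genes the share higher was 45.4%, and after leaving the 100 most abundant genes out of the TPM total it was 39.3%, with 7 of the 9 genes past the threshold each time. Relative to the median of all genes, the TPM log2 ratios of the 9 genes ran from 0.52 for *Hpx* to 2.89 for *Lcn2*.

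**Figure D2:**
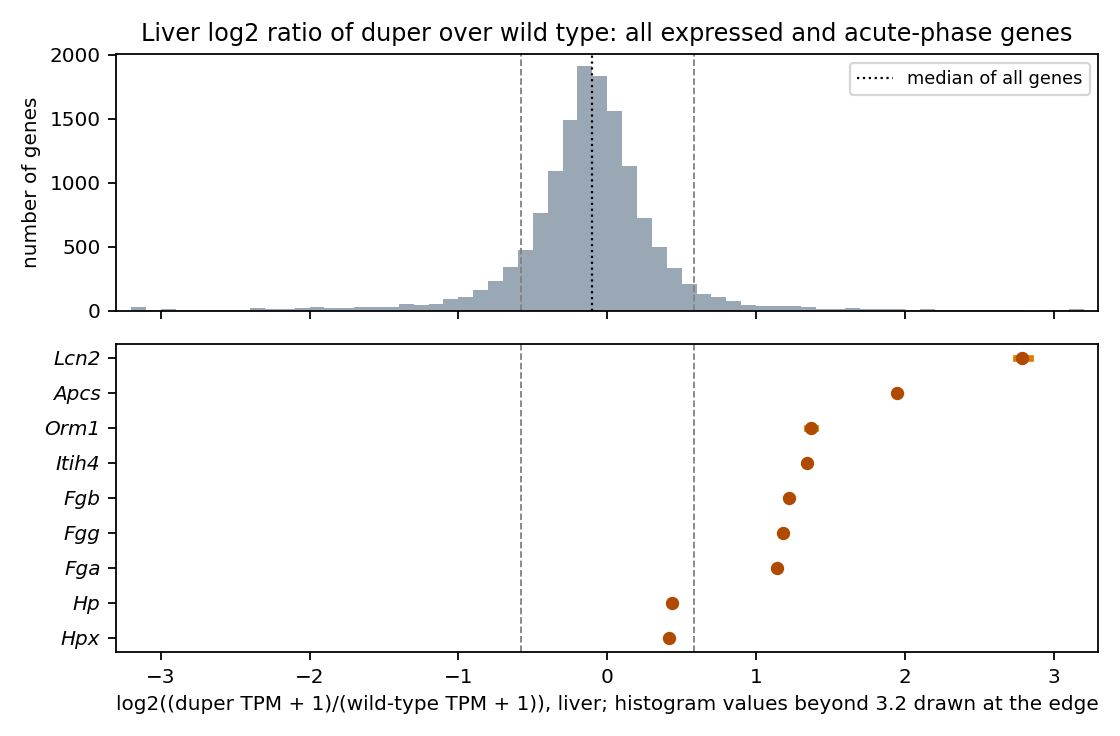
Number of genes (y axis, upper panel) by liver log2 ratio of *duper* over wild type (x axis, TPM plus 1) for the 14054 expressed genes, and the ratio of each acute-phase gene (lower panel, points) with its 95% interval for counting error (bars, mostly hidden by the points). Dashed lines mark 0.58 and -0.58, and the 9 points lie between 0.42 and 2.79, with *Hp* and *Hpx* between the dashed lines and so not past the threshold.

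Together the 9 genes made up 2.74% of all TPM in wild type liver and 5.16% in *duper* liver. Without *Hp*, the most abundant of them, the share was 1.28% in wild type liver and 3.19% in *duper* liver. By TPM the order in wild type liver was *Hp*, *Apcs*, *Fgb*, *Hpx*, *Fgg*, *Fga*, *Itih4*, *Orm1* and *Lcn2*. *Apcs* at 2499, *Fgb* at 2493 and *Hpx* at 2482 TPM lay close together there, and with 1 value a genotype no spread could be set against their order. In *duper* liver the order was *Hp*, *Apcs*, *Fgb*, *Fgg*, *Fga*, *Hpx*, *Itih4*, *Orm1* and *Lcn2*, so that *Hpx* stood below the fibrinogen chains. The ranks among all genes moved from 4 to 3 for *Hp*, from 45 to 18 for *Fgb*, from 222 to 77 for *Orm1* and from 870 to 116 for *Lcn2*. The 5 genes with the highest mean liver TPM were *Alb*, *LOC101828182*, *Hp*, *Ttr* and *Apoe*, and the log2 ratios of the others were 0.06 for *Alb*, 0.29 for *LOC101828182*, 0.02 for *Ttr* and 0.11 for *Apoe*.

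The transcript estimates showed which isoforms carried these levels. *Fga*, *Fgb*, *Hp* and *Apcs* had 1 transcript each. For *Fgg*, 1 of 4 transcripts held nearly all of the gene's TPM in both livers (4856 of 4857 in *duper*), and for *Orm1* and *Lcn2* 1 of 2 held 98.7% to 99.2%. *Hpx* was split between a transcript of 3759 bases, with 48.3% of its TPM in wild type and 46.2% in *duper* liver, and a transcript of 2674 bases with the rest. The log2 ratio was 0.35 for the longer and 0.47 for the shorter *Hpx* transcript. The leading of 3 *Itih4* transcripts held 86.3% in wild type and 88.1% in *duper* liver, and the log2 ratios of the 3 were 1.37, 1.27 and 1.06. Every transcript of the 9 genes with more than 3 counts in a liver library thus had a higher TPM value in *duper* liver.

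The genes were next compared between liver and brain, with the genotypes standing in for replicates of a tissue. In edgeR's quasi-likelihood fit over all 6 libraries, 9 of the 9 genes were called higher in liver than in the mean of cortex and SCN (Benjamini-Hochberg adjusted p below 0.05 and log2 fold change above 1), against 26.5% of the 18275 genes tested. The log2 fold changes ran from 8.80 (SE 0.57, adjusted p = 1.14e-05) for *Lcn2* to 12.50 (SE 0.55, adjusted p = 1.61e-06) for *Fga*, and each gene was higher in both liver libraries than in any of the 4 brain libraries. With library sizes in place of TMM factors the 9 genes were also called. Over all genes, 2238 were then called higher in liver, against 4837 in the main fit. Of the 9 genes, 4 had at least 10 counts in every library, and 8 of the 9 also passed the filter on low counts when the liver libraries were left out. The exception was *Orm1*, with 0 to 12 counts in the brain libraries. It needed its liver counts to be tested, so its call as higher in liver is no independent support.

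In brain the 9 genes stood between 0 and 14.7 TPM, on 0 to 184 estimated counts. *Hp* had the highest brain level, at 13.7 TPM in wild type cortex, 8.27 in *duper* cortex, 9.40 in wild type SCN and 14.7 in *duper* SCN. *Hpx* was at 5.64 TPM in wild type cortex, 4.59 in *duper* cortex, 4.11 in wild type SCN and 5.52 in *duper* SCN. Both were lower in *duper* cortex and higher in *duper* SCN than in the wild type library of that tissue. *Lcn2* had the same pattern, with 5.26 TPM in wild type cortex, 0.990 in *duper* cortex, 2.89 in wild type SCN and 5.09 in *duper* SCN, on 9, 3, 28 and 12 counts. *Apcs* was at 4.96 TPM in wild type cortex, 2.92 in *duper* cortex, 5.04 in wild type SCN and 3.33 in *duper* SCN, so that it was lower in the *duper* library of both brain tissues, on 10, 9, 51 and 8 counts.

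Among the fibrinogen chains, *Fga* was at 2.36 TPM in wild type cortex, 0.955 in *duper* cortex, 1.05 in wild type SCN and 0.554 in *duper* SCN. *Fgb* was at 4.26, 1.93, 2.25 and 2.27 TPM in the same order of libraries, and *Fgg* at 3.25, 2.15, 3.45 and 1.97 TPM. The *duper* library was the lower one in cortex for each chain and in SCN for *Fga* and *Fgg*. *Itih4* was at 1.04 TPM in wild type cortex, 0.461 in *duper* cortex, 1.00 in wild type SCN and 1.27 in *duper* SCN. *Orm1* had no count in wild type cortex, which allows up to 3 counts or 0.442 CPM, and 3 counts in *duper* cortex, so no cortex ratio is given for it. In SCN *Orm1* was at 1.80 TPM in wild type and 2.54 in *duper*, on 12 and 5 counts.

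In cortex, 7 of the 9 genes averaged 1 TPM or more. Past a log2 ratio of 0.58, 0 of these 7 were higher in *duper* cortex, against 8.24% of the 18096 genes expressed there, and 5 were lower, against 7.75%. These 5 were *Lcn2* (-1.65), *Fgb* (-0.85), *Fga* (-0.78), *Hp* (-0.67) and *Apcs* (-0.61), and the counting intervals of the first 4 excluded 0. The median log2 ratio of the 7 genes was -0.67, against 0.02 over all genes expressed in cortex. With TMM-normalized CPM plus 1 in place of TPM plus 1, 3 of the 7 were past the threshold downward, against 4.37% of all genes, and *Apcs* was at -0.37 and *Lcn2* at -0.75. The added 1 weighs more on that scale, where these 7 genes stood at 0.231 to 6.65 CPM in cortex. With no added 1 the TMM-normalized log2 ratios were -0.75 for *Hp*, -0.78 for *Apcs* and -2.21 for *Lcn2*. These were close to the -0.73, -0.77 and -2.41 of TPM with none added. With TMM-normalized CPM and no added 1, 6 of the 7 were past the threshold downward, with no share of all genes given here. In TPM with 0.1 added, 5 of the 7 were, against 9.97% of all genes. In SCN, 8 of the 9 genes averaged 1 TPM or more, all but *Fga*. Of these, 2 were past the threshold upward, *Lcn2* at 0.65 and *Hp* at 0.59, against 6.67% of 18305 genes, and 1 downward, *Fgg*, just past it at -0.58, against 7.7%. Of the SCN intervals, that of *Hp* (0.13 to 1.14) excluded 0, and the differences of the other genes were not detectable at this depth. The median of the 8 genes in SCN was 0.26, against 0.02 over all genes. With TMM-normalized CPM plus 1 none of the 8 passed the threshold in SCN, with *Hp* at 0.49, *Lcn2* at 0.39 and *Fgg* at -0.47. Over all genes, 3.16% were past it upward and 4.11% downward on that scale. With no added 1, *Hp*, *Lcn2* and *Fgg* were at 0.62, 0.83 and -0.83. Of the 8 genes, 3 then passed the threshold upward and 2 downward, with no share of all genes given here. In TPM with 0.1 added, 2 passed it upward, against 8.80% of all genes, and 2 downward, against 9.90%. In TPM plus 1, *Hp* (0.57) missed the threshold after the median of all genes was subtracted.

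Hepatocyte genes were also detected in brain at small fractions of their liver level. Leaving out *Orm1* and *Lcn2*, the brain TPM of the 7 other acute-phase genes was 0.0944% to 0.227% of that in the liver of the same genotype in wild type cortex, 0.0210% to 0.138% in *duper* cortex, 0.0647% to 0.202% in wild type SCN and 0.0160% to 0.167% in *duper* SCN. For 11 hepatocyte markers other than *Ttr*, which the choroid plexus also makes, the medians were 0.104%, 0.0525%, 0.0565% and 0.101% in these libraries, inside those ranges in 3 of the 4 libraries and below it in wild type SCN. The 11 markers summed to 151 TPM in wild type cortex, 65.2 in *duper* cortex, 80.3 in wild type SCN and 105.6 in *duper* SCN, and 8 of them were lower in *duper* cortex and 4 in *duper* SCN. *Alb*, the most abundant of them, was at 112 TPM in wild type cortex, 43.9 in *duper* cortex, 52.2 in wild type SCN and 72.9 in *duper* SCN, and *G6pc1* was listed at 0 in *duper* cortex. The part of these genes' source in the brain values of the acute-phase genes was not tested. *Orm1* was at 0% of its own liver level in wild type cortex, 0.0742% in *duper* cortex, 0.292% in wild type SCN and 0.159% in *duper* SCN. It was below the range of the 7 genes in wild type cortex and above it in wild type SCN, on 0 and 12 counts. *Lcn2* stood above those ranges against its own liver level except in *duper* cortex, at 3.50% in wild type cortex, 0.0952% in *duper* cortex, 1.92% in wild type SCN and 0.490% in *duper* SCN. In cortex, 8 neutrophil markers summed to 52.4 TPM in wild type and 12.8 in *duper*, and 7 of the 8 were lower in *duper*, as *Lcn2* was. *S100a9* was the most abundant at 34.5 and 6.59 TPM, and none was at 0. The markers had few counts in cortex, such as 44 and 13 for *S100a9*, 16 and 5 for *Elane*, 9 and 2 for *Mmp8* and 1 and 1 for *Mpo*. In SCN they summed to 15.02 TPM in wild type and 13.6 in *duper*, where 3 of the 8 were lower, *S100a9* (6.06 and 1.97 TPM) among them, and the others higher. Their part in the *Lcn2* values was not tested.

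Across the 3 tissues, *duper* was compared with wild type in the same edgeR fit with tissue as a covariate, so that tissues of the same hamsters stood in for replicates. At an adjusted p below 0.05 and an absolute log2 fold change above 0.58, 0 of the 9 genes were called, against 0.00547% of the 18275 genes tested (1 gene, *Rps27*). *Cry1*, the mutated gene, was not called either (log2 fold change -1.69, SE 0.17, adjusted p = 0.131 by edgeR). A gene left uncalled by this fit is thus not shown to be unchanged. At an unadjusted p below 0.05 there were 2 of the 9, against 605 of all genes, and with DESeq2 1 of the 9 genes and 42 of all genes were called. *Orm1* had a log2 fold change of 1.49 (SE 0.23, adjusted p = 0.390 by edgeR) and a higher TPM value in the *duper* library of each tissue, though its cortex direction rests on 0 and 3 counts and its SCN interval (-1.36 to 2.10) included 0. DESeq2, edgeR's likelihood ratio test and the fit without a filter on low counts called *Orm1*, and its adjusted p ran from 4.00e-06 to 0.726 over the alternatives. *Lcn2* had a log2 fold change of 2.26 (SE 0.63, adjusted p = 0.998 by edgeR) and was higher in 2 of 3 tissues. Its log2 fold change was 0.72 with DESeq2 and 0.91 with the likelihood ratio test, and its adjusted p ran from 0.310 to 1.00 over the alternatives. The other 7 genes had log2 fold changes from 0.31 for *Hp* and *Hpx* to 1.25 for *Apcs*, each with an adjusted p of 0.998. With DESeq2 and the likelihood ratio test, *Apcs* was at 0.30 and 0.45, *Itih4* at 0.38 and 0.64, *Fgb* at 0.16 and 0.27, and *Fgg* at 0.0048 and 0.12, while *Fga* went from 0.54 to -0.24 and -0.089. Without the liver libraries, 8 genes were tested and none was called, and the log2 fold changes of *Fga*, *Fgb*, *Fgg*, *Apcs*, *Itih4* and *Lcn2* were negative, from -1.15 for *Fga* to -0.27 for *Itih4* and *Lcn2*. Whether the genotype difference itself differs between liver and brain was not tested.

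Other genes of the response were taken from lists in the same way. Of 21 other positive acute-phase genes in the matrices, 19 were expressed in liver, and 7 were past 0.58 upward and 1 downward, with a median log2 ratio of 0.45. The most abundant of them by the mean of both livers was *C3*, the central complement protein, at 4034 TPM in wild type and 6426 in *duper* liver (log2 ratio 0.67). *Fgl1*, for a fibrinogen-like protein of hepatocytes, had the largest log2 ratio of the list, 1.63, from 818 to 2525 TPM, and *Il1rn*, the interleukin-1 receptor antagonist gene, the lowest, -0.85, from 39.5 to 21.5 TPM. One gene of the list, *LOC121134809*, was put there because the study had picked it from these samples, so its direction (0.67) is not independent evidence. Of 13 expressed negative acute-phase genes, 2 were past the threshold upward and 0 downward, with a median of 0.13. They were *Fetub*, for a fetuin, at 0.68, and *Itih2*, for another inter-alpha-trypsin inhibitor heavy chain, at 0.63. *Alb*, the most abundant, was at 0.06, and *Rbp4*, the retinol carrier, was the lowest at -0.22.

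The signaling pathway that switches on the acute-phase genes was taken from a list as well. Of 35 expressed signaling genes, 0 were past the threshold upward and 2 downward, with a median of -0.02. The lowest was *Osm*, for the cytokine oncostatin M, at -0.60. The most abundant, *Hnf4a*, was at 212 TPM in wild type and 243 in *duper* liver, and the highest log2 ratio was that of *Lifr*, a receptor of the interleukin-6 family, at 0.51. *Il6*, *Stat3* and *Socs3*, named for their place in the pathway after their values were seen, were listed at 0 in both livers, at 84.2 and 103 TPM, and at 5.77 and 5.87 TPM. Of 14 expressed genes for receptors, proteases and other partners of the acute-phase proteins, 1 was past the threshold upward and 0 downward, with a median of 0.14. It was *Tgm2*, a transglutaminase gene, at 0.74, while *Plg*, for the plasminogen that dissolves fibrin, was the most abundant at 1873 and 2562 TPM. None of the genes in these lists was called across tissues by edgeR.

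**Figure D3:**
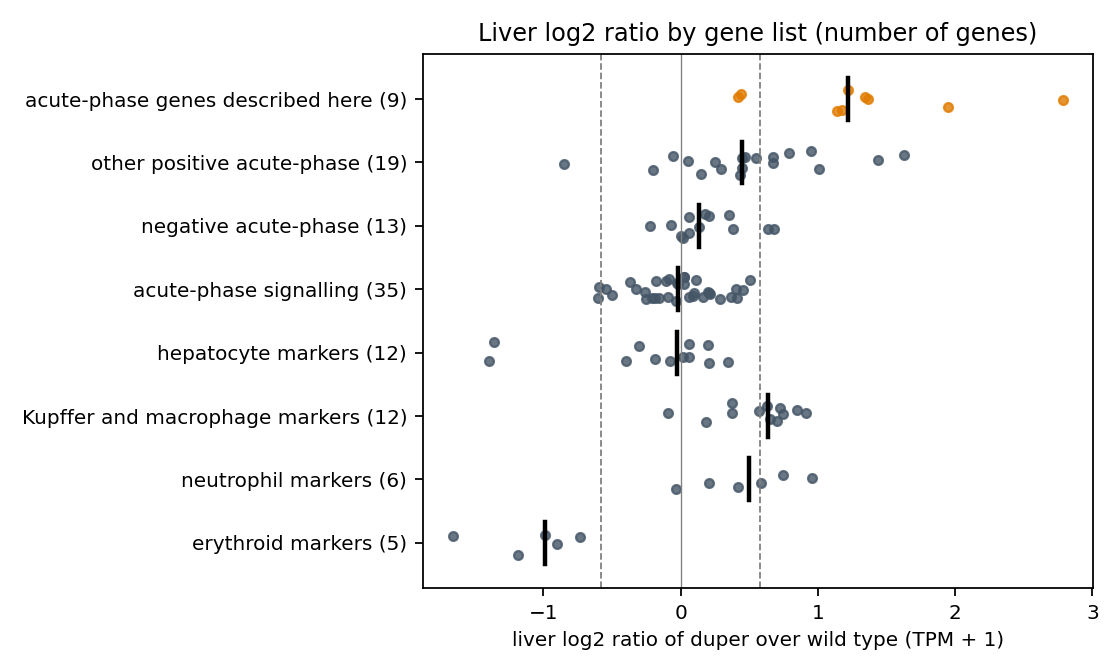
Liver log2 ratio of *duper* over wild type (x axis, TPM plus 1) for each expressed gene (points) of 8 gene lists (y axis, with the number of genes), with the median of each list as a vertical bar and dashed lines at 0.58 and -0.58. The medians are 1.22 for the acute-phase genes described here, 0.45 for other positive acute-phase genes, 0.64 for Kupffer cell and macrophage markers and -0.99 for erythroid markers.

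Markers of other liver cell types were read beside the acute-phase genes, against the same 4.75% and 10.5% of all expressed genes past the threshold upward and downward. Of 12 expressed Kupffer cell and macrophage markers, 7 were past 0.58 upward and 0 downward, with a median log2 ratio of 0.64, and all 13 in the matrices summed to 841 TPM in wild type and 1367 in *duper* liver. The most abundant by the mean of both livers, *C1qa*, was at 155 and 279 TPM, *Clec4f*, a marker of Kupffer cells, was at 50.4 and 95.7 TPM, and no marker was at 0 in liver. Of 6 expressed neutrophil markers, 3 were past the threshold upward and 0 downward, with a median of 0.50, and 8 summed to 60.6 TPM in wild type and 95.4 in *duper* liver. *S100a9*, the most abundant, was at 42.3 and 64.0 TPM, *Ltf*, for the granule protein lactoferrin, at 8.02 and 16.5 TPM, and *Elane* and *Mpo*, genes of immature neutrophils, at 1.90 and 1.84 TPM and at 0.854 and 0.747 TPM. Neutrophils and macrophages also express *Lcn2*, and the part of these cells in the levels of *Lcn2* or the other 8 genes was not tested.

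Erythroid markers were lower in the *duper* library of each tissue. Their 7 genes summed to 3288 TPM in wild type and 1794 in *duper* liver, and 5 of 5 expressed ones were past the threshold downward (median -0.99), with the hemoglobin gene *LOC121144049* the most abundant at 1951 and 1171 TPM and none at 0 in liver. The study had picked several of them from these samples, so their direction is not independent evidence. All 7 were also lower in the *duper* library of both brain tissues, with sums of 1432 TPM in wild type cortex, 826 in *duper* cortex, 5649 in wild type SCN and 2068 in *duper* SCN, and *Slc4a1* was at 0 in *duper* cortex. Their part in the levels of *Hp*, *Hpx* and the other acute-phase genes, in liver or brain, was not tested. Of 12 hepatocyte markers, 0 were past the threshold upward and 2 downward, the gluconeogenic genes *G6pc1* (-1.39) and *Pck1* (-1.36), and the median was -0.03. Cholangiocyte markers (0 of 4) and endothelial and stellate markers (0 of 10) did not pass it in either direction.

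Genes tied to sex and to growth hormone signaling were read in the same way. Of 8 such genes expressed in liver, 3 were past the threshold upward and 1 downward, with 4 within it and a median of 0.18. *Prlr*, for the prolactin receptor, which is known to be higher in female than male rodent liver, was at 9.78 TPM in wild type and 72.0 in *duper* liver (log2 ratio 2.76). *LOC110339366*, a noncoding RNA gene that the study had picked from these samples, was the most abundant by the mean of both livers, at 58.2 and 280.4 TPM, and *Bcl6*, a repressor known to be higher in male liver, was the lowest at -0.90. Their part in the level of *Apcs* was not tested. Of 13 expressed interferon-stimulated genes, several of them picked by the study from these samples, 4 were past the threshold upward and 1 downward, with a median of 0.51. *Isg15*, for a ubiquitin-like protein, had the highest log2 ratio, 1.41, and *Oas3*, for an RNA-sensing enzyme, the lowest, -1.10.

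The genes most like 3 of the acute-phase genes were found by Euclidean distance of log2(TPM + 1) over the 6 libraries, leaving out the 9 genes themselves. Nearest to *Lcn2*, with the largest liver difference, were *Serpinf2*, for a plasmin inhibitor (distance 1.98), *LOC101833293*, whose RefSeq synonym is SAA3, a serum amyloid A (2.23), and *C1r*, for a complement protease (2.43). *LOC101833293* was at 4.54 TPM in wild type cortex, 0 in *duper* cortex, 3.54 in wild type SCN, 6.07 in *duper* SCN, 137 in wild type liver and 266 in *duper* liver. Its cortex values rest on 5 and 0 counts, and the likeness was measured on these same libraries. *C1r* was lower in *duper* SCN than in wild type SCN, at 5.23 against 8.77 TPM, unlike *Lcn2*. Nearest to *Hp*, the most abundant, were *LOC101843716*, with CYP2E1 as a synonym (1.18), *LOC101827684* (2.20) and *Gc*, for the vitamin D binding protein (2.42). Among those nearest to *Hpx*, with the smallest liver difference, were *LOC101832386* (1.17) and *LOC101840543* (1.60). The liver log2 ratios of the 3 genes nearest to *Lcn2* ran from 0.50 to 0.95, and those of the genes named as near to *Hp* and *Hpx* were below 0, from -0.40 to -0.07.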

How the data were processed

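The authors quantified reads (TRIzol RNA, TruSeq Stranded mRNA libraries, Illumina sequencing) with Kallisto, whose version was not given in the sources used here, against hamster transcripts, and summed transcripts per gene with tximport. The deposited matrices hold estimated counts and TPM per gene, and deposited transcript tables hold both with transcript lengths. The members and the gene lists were chosen with earlier results of these data known. All 6 libraries were used, and groups came from the labels.

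Estimated counts were rounded and fitted in edgeR 4.0.16 (R 4.3.3) with TMM factors, filterByExpr by genotype, and tissue and genotype in the model. SE is the log2 fold change over the square root of F. DESeq2 1.42.0 was an alternative. Calls needed a Benjamini-Hochberg adjusted p below 0.05. The fit and the intervals were tested on simulated data. Within a tissue, log2((TPM + 1) ratios) had no test, and genes averaging 1 TPM or more were the background.

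Named genes were all members, at most 4 genes of each list (most abundant, highest, lowest, any called) and more for marker lists, the 3 nearest genes of 3 members, and the 5 most abundant liver genes. Some genes under this rule are not reported here. As no member was lower in *duper* liver, the member with the smallest rise took the place of the largest fall. Symbols absent from the matrices were looked up as RefSeq synonyms (assembly BCM_Maur_2.0), a step added after the data were seen, which matched *Saa3*, *Mt2* and *Cyp2e1*. Alternatives covered tests, normalization, filters, thresholds, scaling and libraries left out.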

Additional observations from a re-analysis of the deposited data

Results flagged for a closer look

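In cortex, 4 of the acute-phase genes went against their direction in liver. All 4 were higher in *duper* liver and lower in *duper* cortex, with cortex log2 ratios of -0.78 for *Fga*, -0.85 for *Fgb*, -0.67 for *Hp* and -1.65 for *Lcn2*. They were picked because the liver interval lay above 0 and the cortex interval below 0, a condition narrowed to these intervals after the values were seen. The share of all genes that meet this condition is not given here. The sign in cortex was opposite to that in liver for 7 of the 7 genes expressed in cortex, 3 of them with intervals that included 0. In SCN it was opposite for 2 of 8. No share of all genes with opposite signs is given here, so these counts have no background and describe the acute-phase genes only. The difference between the tissues was not tested. The cortex values rest on 18 and 11 counts for *Fga*, 19 and 13 for *Fgb*, 37 and 34 for *Hp* and 9 and 3 for *Lcn2*, in wild type and *duper*. With TMM-normalized CPM and no added 1, the cortex log2 ratios were -1.33 for *Fga*, -1.17 for *Fgb*, -0.75 for *Hp* and -2.21 for *Lcn2*, and adding 1 to these low CPM values brought them to -0.76, -0.70, -0.58 and -0.75. In the same libraries, 11 hepatocyte markers summed to 151 TPM in wild type cortex and 65.2 TPM in *duper* cortex, 8 of them lower in *duper*, with *Alb* the most abundant at 112 and 43.9 TPM and *G6pc1* at 0 in *duper*. The 8 neutrophil markers summed to 52.4 and 12.8 TPM, 7 of them lower in *duper*, and none was at 0. *S100a9* was the most abundant at 34.5 and 6.59 TPM, on 44 and 13 counts, and *Mpo* rested on 1 and 1. The part of either in these cortex values was not tested.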

How the results depend on the processing

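In all, 390 alternative values were computed. The 9 genes were higher in *duper* liver under each scaling and pseudocount tried, and 7 to 9 were past 0.58. Of the 36 single-gene liver ratios, 27 moved beyond their counting interval, all upward, and the 60 in brain moved by less than their counting error. Of the members past 0.58 in brain, the 5 lower in cortex became 3 with TMM-normalized CPM plus 1 and 6 with no pseudocount on that scale. The share of all genes lower in cortex went from 7.75% to 4.37% with TMM-normalized CPM plus 1. That share is not given here with no pseudocount. In SCN the 2 higher became 0 with TMM-normalized CPM plus 1, 3 with no pseudocount and 1 minus the median. The 1 lower became 0 with TMM-normalized CPM plus 1, 2 with no pseudocount and 2 with a TPM pseudocount of 0.1. Of all genes in SCN, 6.67% were higher and 7.7% lower in TPM plus 1. These shares were 3.16% and 4.11% with TMM-normalized CPM plus 1, and 8.80% and 9.90% with the TPM pseudocount of 0.1. The members' median of 1.22 was 1.40 with TMM-normalized CPM, 1.32 minus the median of all genes and 1.30 without the 100 most abundant genes. Over all genes, 668 were higher and 1477 lower, against 1067 and 909 with TMM-normalized CPM, 282 and 555 at a mean of at least 10 TPM, and 281 and 547 at a log2 ratio over 1. That threshold, the alternatives to the brain counts and the counts without the most abundant genes were chosen after seeing the data. The members' share of estimated counts was 2.11% in wild type and 3.95% in *duper* liver.

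Between genotypes across tissues, the 1 gene called became 42 with DESeq2, 91 with the likelihood ratio test, 48 with no filter, 2 without cortex, 34 without SCN and 22 without liver. Members called went from 0 to 1 (*Orm1*) with DESeq2, the likelihood ratio test and no filter. *Fga* changed sign, from 0.54 to -0.24 with DESeq2 and -0.089 with the likelihood ratio test, and the cause was not tested. *Lcn2* went from 2.26 to 0.72 and 0.91, and *Apcs* from 1.25 to 0.30 and 0.45, in these tests. Without liver, which leaves only brain libraries, values were -1.15 for *Fga*, -0.56 for *Fgb*, -0.77 for *Fgg*, -0.68 for *Apcs*, -0.27 for *Itih4* and -0.27 for *Lcn2*. Genes called higher in liver than brain fell from 4837 to 2238 with library sizes in place of TMM. With at least 10 counts in every library, 4 members were tested and all 4 called, since fewer genes were tested. With each brain library left out in turn, 9 members were tested and called. With either liver library left out, 8 were tested and called, but liver then had 1 library, assumed to vary like the brain libraries, so this is no replicate check.

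No analysis paired by single hamster was possible because the labels give no replicate numbers to pair, and the liver reads of single hamsters were merged. Tissue and genotype were both terms of the fit, so liver and brain libraries from the hamsters of one genotype were already matched. Depth limits the brain values, which rest on at most 184 counts.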
